A study of Mus musculus with 8 samples.

Results

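DNA methylation was described for the long CpG islands of the mouse autosomes, those of 1500 bp or more from first to last base. Islands of the Hox table, which lists the Hox clusters separately, were left out, and so were islands without a value in all 8 libraries. This left 824 islands of the 13840 listed and of the 7461 that had values. They ran from 1500 to 8548 bp, with a median of 1876 bp, and covered 1715 kb together. They were set against 1870 short autosomal islands of under 600 bp chosen in the same way. The cells were male primary mouse embryonic stem cell (mESC) lines, each derived from a separate blastocyst of a cross with the Castaneus strain, which were being differentiated towards neuromesodermal progenitors (NMPs) in N2B27 medium with bFGF. CHIR99021, an activator of Wnt signalling, was added on day 2. Control lines were Smchd1 fl/+ and are called Smchd1 wt. Smchd1 matΔ lines were Smchd1 del/+, from mothers in which Zp3-Cre, active in the growing oocyte, had removed Smchd1. Cells of 2 lines of each genotype were collected on day 2 and on day 2.5, which gave 4 groups of 2 libraries. Reduced representation bisulfite sequencing (RRBS) cuts DNA at CCGG and reads the ends of short fragments, and the deposited value was the percent methylation of an island in a library. Read counts per island were not given, so beyond the read minimum stated in the study's methods the depth behind a value is unknown. The values are of DNA, so neither the labelled cell type nor the Smchd1 deletion could be checked against transcripts. SDs of group means are over the 2 lines of a group, and SDs of single islands are over the 8 libraries. Tests are over lines, with n = 2 in each group, unless other units are stated.

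CpG islands are stretches rich in C, G and the CpG dinucleotide, and most lie at promoters and carry little methylation in every tissue. Methylated islands are found in gene bodies, at imprinted regions, at germline genes and in repeats. Long islands are typical of genes for developmental regulators, which in mESCs are held silent by Polycomb complexes rather than by DNA methylation. SMCHD1 is a chromatin protein with roles in X inactivation, imprinting and silencing of gene clusters, and the study asked how its maternal supply affects gene silencing later in development.

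Stretches of 300 bp are shown for 7 long islands, from the plus strand of GRCm38 as given by RefSeq, with the CCGG sites that RRBS cuts in capitals. Each is the window of its island with the most CCGG sites that overlapped no annotated untranslated exon. The first 3 islands had the highest methylation of all long islands, at 91.0%, 47.2% and 36.0%, and are at chr5:68219513-68219812, in a coding exon of Lingo3 at chr10:80834547-80834846 and in a coding exon of Shroom3 at chr5:92941785-92942084. The fourth, in an intron of Gtsf1 at chr15:103410963-103411262, is built of tandem copies like the first. The fifth lies in ribosomal DNA (Rn18s-rs5, chr17:39844741-39845040) and had the lowest SD over libraries of the 16 islands of highest mean. Olig2 (chr16:91225927-91226226) is shown for its genotype difference and Rfx4 (chr10:84754861-84755160) as an island at 0 in all 8 libraries.
Chromosome 5 between genes: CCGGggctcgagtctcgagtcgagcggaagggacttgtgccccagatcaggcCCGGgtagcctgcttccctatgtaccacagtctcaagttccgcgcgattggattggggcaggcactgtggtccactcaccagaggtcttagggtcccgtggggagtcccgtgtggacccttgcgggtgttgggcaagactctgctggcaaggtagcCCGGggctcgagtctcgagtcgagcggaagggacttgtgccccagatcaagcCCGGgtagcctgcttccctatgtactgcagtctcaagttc
Lingo3: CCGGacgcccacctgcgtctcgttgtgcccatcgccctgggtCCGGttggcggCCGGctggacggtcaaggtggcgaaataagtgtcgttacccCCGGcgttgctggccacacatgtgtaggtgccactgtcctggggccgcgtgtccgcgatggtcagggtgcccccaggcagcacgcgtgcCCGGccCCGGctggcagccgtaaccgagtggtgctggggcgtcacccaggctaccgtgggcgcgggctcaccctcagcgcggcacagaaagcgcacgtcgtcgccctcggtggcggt
Shroom3: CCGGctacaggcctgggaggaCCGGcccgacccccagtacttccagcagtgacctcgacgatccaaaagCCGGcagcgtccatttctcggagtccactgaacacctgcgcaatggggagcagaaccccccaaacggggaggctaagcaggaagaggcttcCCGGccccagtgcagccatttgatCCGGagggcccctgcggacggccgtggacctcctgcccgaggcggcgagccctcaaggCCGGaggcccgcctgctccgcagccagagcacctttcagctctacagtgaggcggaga
Gtsf1 intron: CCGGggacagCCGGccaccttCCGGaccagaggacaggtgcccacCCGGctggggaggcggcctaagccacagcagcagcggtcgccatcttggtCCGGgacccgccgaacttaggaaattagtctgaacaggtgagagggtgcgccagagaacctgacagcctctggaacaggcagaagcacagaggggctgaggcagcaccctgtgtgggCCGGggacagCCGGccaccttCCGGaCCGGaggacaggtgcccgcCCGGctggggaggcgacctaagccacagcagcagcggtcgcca
Rn18s-rs5: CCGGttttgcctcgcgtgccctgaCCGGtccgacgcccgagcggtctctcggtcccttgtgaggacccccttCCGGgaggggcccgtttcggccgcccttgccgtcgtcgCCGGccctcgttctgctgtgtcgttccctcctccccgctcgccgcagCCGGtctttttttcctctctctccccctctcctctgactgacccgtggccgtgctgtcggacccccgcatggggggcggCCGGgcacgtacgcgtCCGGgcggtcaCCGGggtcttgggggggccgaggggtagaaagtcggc
Olig2: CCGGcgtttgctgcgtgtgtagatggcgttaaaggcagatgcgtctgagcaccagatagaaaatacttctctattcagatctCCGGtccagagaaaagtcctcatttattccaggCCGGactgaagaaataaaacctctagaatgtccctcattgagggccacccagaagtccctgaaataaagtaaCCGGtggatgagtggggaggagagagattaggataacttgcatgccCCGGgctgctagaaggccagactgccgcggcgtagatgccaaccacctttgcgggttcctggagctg
Rfx4: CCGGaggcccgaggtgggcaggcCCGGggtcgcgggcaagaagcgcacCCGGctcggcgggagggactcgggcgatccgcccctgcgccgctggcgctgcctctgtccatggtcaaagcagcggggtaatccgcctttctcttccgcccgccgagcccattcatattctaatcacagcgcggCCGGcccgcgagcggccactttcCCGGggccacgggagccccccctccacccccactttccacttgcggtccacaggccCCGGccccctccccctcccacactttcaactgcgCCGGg

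The 7 windows held 4 to 10 CCGG sites and 13 to 37 CpGs. From the highest to the lowest island mean, the order shown, they had 4, 6, 6, 10, 8, 5 and 7 CCGG sites. In the same order they had 18, 35, 22, 20, 37, 13 and 32 CpGs.

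Long islands were low in methylation, with a lower mean than short islands and fewer values of 0. Averaged over islands, Smchd1 wt lines 1 and 2 had 1.17% and 1.20% at day 2 and 1.16% and 1.15% at day 2.5, and Smchd1 matΔ lines 1 and 2 had 1.27% and 1.20% at day 2 and 1.29% and 1.16% at day 2.5. Short islands had means of 2.06 to 2.42%, and no library of one length class reached into the range of the other. The level of long minus short islands was -0.984 percentage points, lower in 8 of 8 libraries (exact sign-flip test over the 4 lines, two-sided p = 0.13, the smallest that 4 lines can give, and p = 0.00781 with the 8 libraries as units, also the smallest possible). The median went the other way. It was 0.352 to 0.436% in long and 0 to 0.342% in short islands, and long islands were higher by 0.168 points (exact sign-flip test over 4 lines, p = 0.13).

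**Figure D1:**
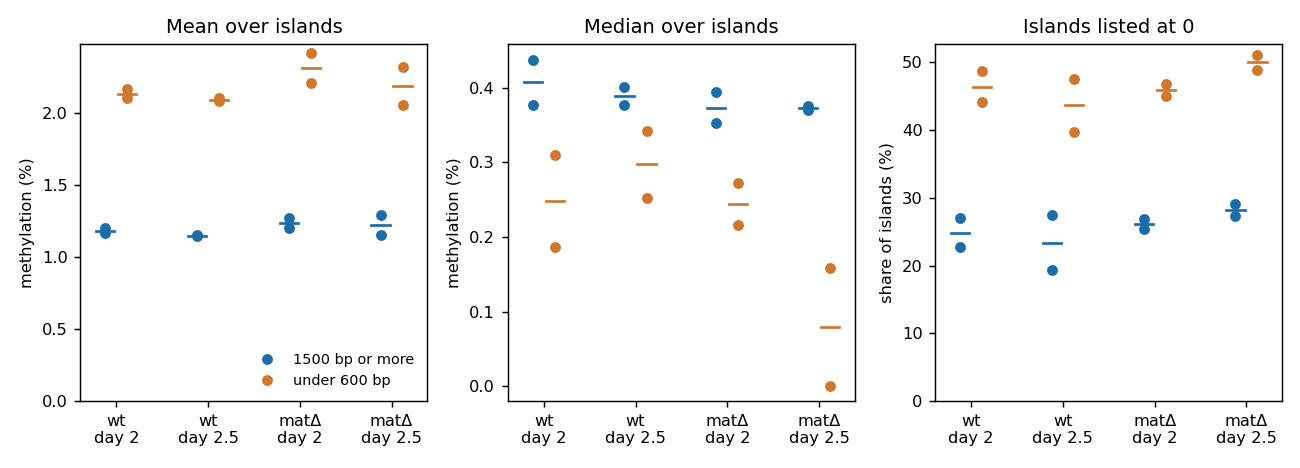
Mean methylation over islands in percent, median in percent and share of islands listed at 0 in percent, each by group, for long islands (1500 bp or more) and short islands (under 600 bp). Points are the 2 libraries of a group and bars their mean: long islands lie lower in the mean, higher in the median and lower in the share at 0, where they run from 19.3 to 29.1% against 39.7 to 51.0%.

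In each library 159 to 240 of the 824 long islands (19.3 to 29.1%) had a value of 0. The share at 0 of long minus short islands was -20.8 points, lower in 8 of 8 libraries (exact sign-flip test over 4 lines, p = 0.13, the smallest possible). When islands under 0.5% were counted in place of those at exactly 0, the difference was -2.41 points, lower in 7 of 8 libraries. Long islands had a median of 130 CpGs within 75 bases of the end of a CCGG fragment of 40 to 300 bp, which a read could cover, and short islands had 32. These CpGs are called readable here. The part of these numbers in the zeros was not tested beyond the strata given further on. Values were also given for more of the long islands, 824 of 984 listed (83.7%), than of the short, 1870 of 5027 (37.2%).

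The lower mean of long islands lay in their upper tail. Of the long islands 674 (81.8%) had a mean over the 8 libraries under 1%, 122 lay between 1 and 5%, 15 between 5 and 10%, and 13 (1.58%) at 10% or more. Of the short islands 79 (4.23%) reached 10%. These islands held 36.1% of the summed level of the long islands and 66.6% of that of the short ones. Among islands under 10% the means were 0.780% for 811 long and 0.763% for 1791 short islands, a difference of 0.0175 points with long islands higher in 5 of 8 libraries (exact sign-flip test, p = 0.375). The median of the island means was 0.429% in long and 0.433% in short islands.

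**Figure D2:**
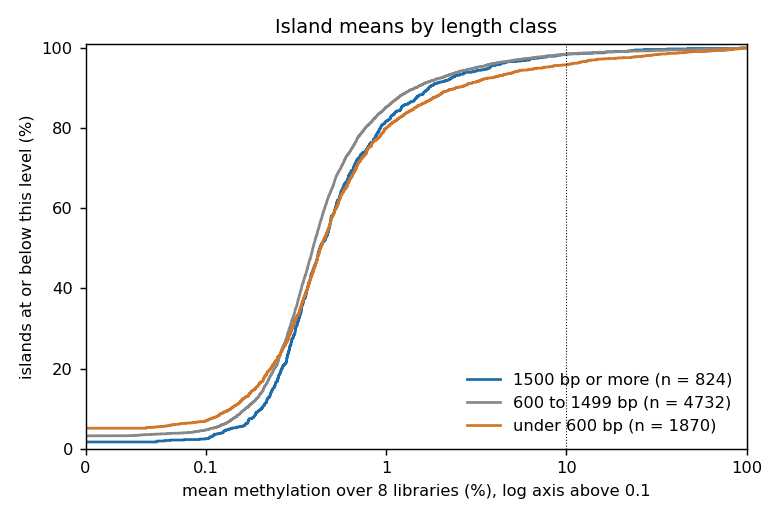
Cumulative share of islands (percent) by their mean methylation over 8 libraries (percent, log axis above 0.1) for 824 long, 4732 middle-length and 1870 short islands, with a dotted line at 10%. At 1% the curves stand at 81.8% of long and 79.9% of short islands, and they part at both ends, where short islands have more at 0 in all libraries (5.13% against 1.70%) and more at 10% or above (4.23% against 1.58%).

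The 13 long islands at 10% or more were mostly inside genes. Of these 11 lay in gene bodies, 1 between genes and 1 at a transcript start. Of all long islands 765 held the start of an annotated transcript, 51 lay in a gene body without one, and 8 lay between genes. Islands at transcript starts had a mean of 0.781%, with 1 of 765 at 10% or more (0.131%). Islands in gene bodies had a mean of 5.82%, with 11 of 51 (21.6%) at that level. Among short islands the corresponding means were 0.975% for 1582 at transcript starts, with 24 (1.52%) at 10% or more, and 8.48% for 216 in gene bodies, with 44 (20.4%). Short islands thus had a larger share away from transcript starts, 11.6% in gene bodies against 6.19% of long islands. At transcript starts alone, an alternative chosen after the data were seen, the level of long minus short islands was -0.194 points, lower in 8 of 8 libraries (exact sign-flip test, p = 0.13), and the difference in the share at 0 was -22.6 points.

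**Figure D3:**
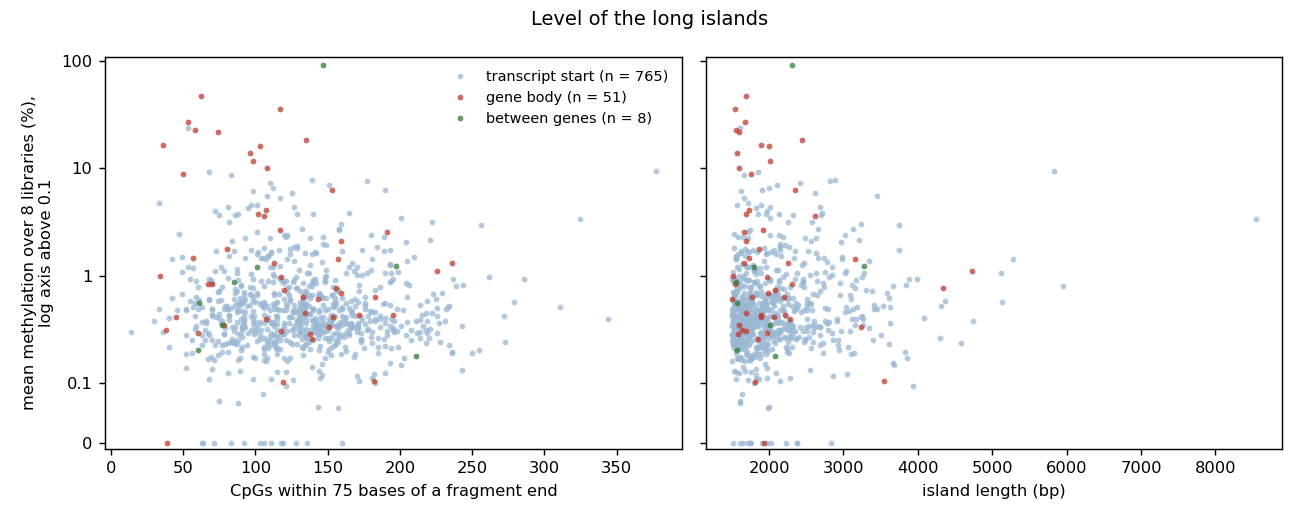
Mean methylation over 8 libraries (percent, log axis above 0.1) of each of the 824 long islands against its number of readable CpGs and against its length in bp, coloured by place. All but 2 of the 13 islands above 10% are gene body islands, and none of the islands over 2500 bp reaches 10%.

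The most methylated long island, chr5:68219306-68221618, lay between genes, 55854 bp from the nearest transcript start, that of Gm43026. Its values were 89.0 and 93.8% in Smchd1 wt lines 1 and 2 at day 2, 88.8 and 92.0% at day 2.5, 91.5 and 87.3% in Smchd1 matΔ at day 2, and 95 and 90.5% at day 2.5. No group stood apart, and the SD over the 8 libraries was 2.62 points. The island consisted of copies of a 208 bp unit. Each base matched the base 208 bp on at 98.0% of positions, and 94.8% of its 20-base words occurred more than once within it. The Gtsf1 intron island (chr15:103410752-103412350) had the next highest share of repeated words, 88.9%, with copies 212 bp apart that matched at 86.1% of positions. No 20-base word was shared between these islands on either strand. The median long island had none repeated (0%), and 9 of the 824 had 10% or more.

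These were also the 2 long islands with 90% or more of their bases in lower case in the RefSeq genome, which marks repeats. Among middle-length islands 17 and among short islands 15 were masked to that extent, with means of 62.0% and 64.1% and island means from 20 to 94.7%. Without such islands the mean was 1.07% over 822 long and 1.68% over 1855 short islands. Gtsf1, a gene for a protein of the piRNA pathway, had values in its intron island of 27.9 and 7.44% in Smchd1 wt at day 2, 20.4 and 39.3% at day 2.5, 23.2 and 19.2% in Smchd1 matΔ at day 2, and 9.09 and 29.2% at day 2.5. The lines of a group lay far apart in it, with an SD over the libraries of 10.5 points. Reads from near-identical copies can be placed on the wrong copy or lost, so the levels of both islands are uncertain.

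The remaining islands of the highest level lay in coding exons. The island in Lingo3 (chr10:80834350-80836042), a gene for a leucine-rich repeat membrane protein, had 29.8 and 48.4% in Smchd1 wt at day 2, 42.5 and 41.2% at day 2.5, 58.0 and 46.2% in Smchd1 matΔ at day 2, and 56.8 and 54.8% at day 2.5. Its groups overlapped at day 2 and not at day 2.5. Shroom3 (chr5:92941539-92943085), which shapes epithelial cells, ran from 19.7 to 48.4% with an SD of 9.42 points. By contrast the island over the last exons of Gdf1, a TGF-β family ligand, and of Cers1 and Upf1 (chr8:70330650-70332330) stayed between 24.6 and 29.2% in all 8 libraries, at a mean of 27.1% and an SD of 1.5 points. Znrf4 (chr17:56510864-56512467) was the only transcript start island at 10% or more, with a mean of 23.9% and a range of 16.7 to 29.6%. Espn, for an actin-bundling protein, had a mean of 23.0%, Cilp2 18.5%, AI464131 (Myorg) 16.5% and Fzd2, a Wnt receptor whose coding sequence lies in a single exon, 16.2%. Myo15b, Jph4 and Tnxb had 13.9%, 11.7% and 10%.

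**Figure D4:**
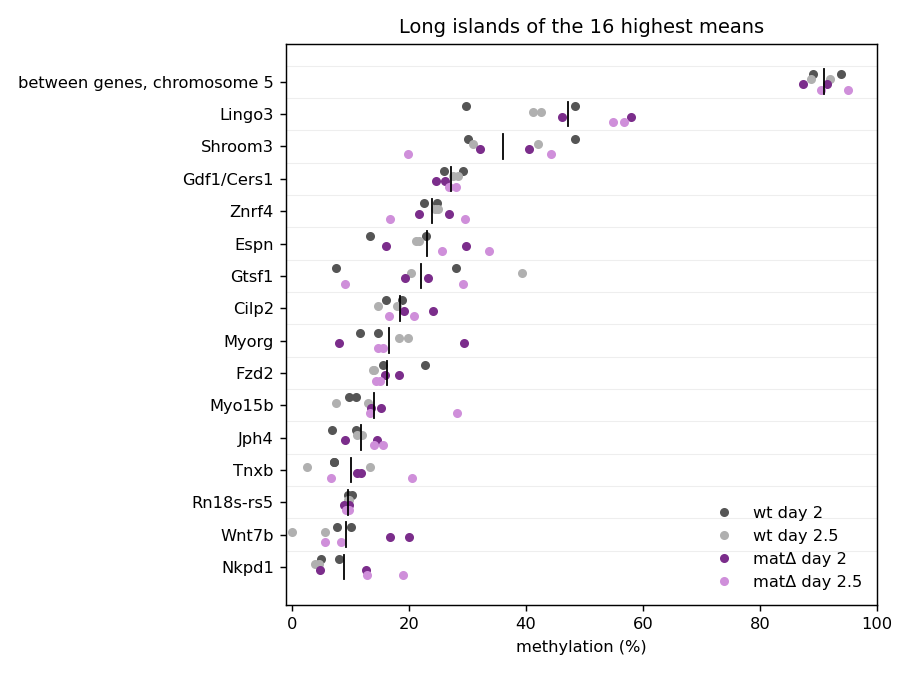
Methylation in percent of the 16 long islands with the highest means, 1 row each, with a point for every library coloured by group and a bar at the mean of the 8 libraries. The island between genes on chromosome 5 lies between 87.3 and 95%, Rn18s-rs5 within 8.79 to 10.3%, and Gtsf1 from 7.44 to 39.3%.

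Length within the class went with neither a rise nor a fall of the mean. The mean was 1.26% for 320 islands under 1750 bp, 0.922% for 183 from there to under 2000 bp, 1.52% for 171 up to 2500 bp, 1.15% for 75 up to 3000 bp and 0.951% for 75 of 3000 bp or more. The median moved from 0.413% in the shortest of these to 0.528% and 0.525% in the longest, and no island of 2500 bp or more reached 10%. The mean of the 171 islands included the chromosome 5 island at 91.0%. The islands just inside the length limit, at Usp34 and Mmp17 with 1500 bp each, had means of 0.346% and 0.421%. Those a single base too short, at Smc4 and Atp2a2, had 0.733% and 0.238%.

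The longest island, 8548 bp over Hic1 (chr11:75165308-75173855), a gene for a zinc finger repressor known as a target of methylation in tumours, was low and steady. It had 2.95 and 3.04% in Smchd1 wt at day 2, 3.08 and 3.65% at day 2.5, 3.34 and 2.61% in Smchd1 matΔ at day 2, and 4.70 and 3.39% at day 2.5. The next longest, 5948 bp over Egr3, an immediate early transcription factor gene, ranged from 0.312 to 1.30%. The third, 5823 bp over the ribosomal DNA copy on chromosome 17 (chr17:39843001-39848823, Gm26917 and Rn18s-rs5), had 10.3 and 9.52% in Smchd1 wt at day 2, 9.76 and 9.49% at day 2.5, 8.79 and 9.69% in Smchd1 matΔ at day 2, and 9.14 and 9.68% at day 2.5. It had 377 readable CpGs, the most of any long island, and an SD of 0.439 points. Ribosomal DNA is present in many copies that are nearly identical, and this value is that of whichever copies aligned here.

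Fewer readable CpGs went with more zeros and with a higher mean among the long islands. Those with 100 or more readable CpGs (603 islands) had a mean of 1.04% and 22.7% of values at 0, averaged over the libraries. Those with 60 to 99 (179) had 1.31% and 32.4%, and those with 20 to 59 (41) had 3.09% and 36.9%. Short islands with 20 to 59 readable CpGs (1538) had 2.00% and 45.2%. In that stratum, which brings the classes nearer but leaves medians of 52 readable CpGs in long and 34 in short islands, the level of long minus short islands was 1.09 points, higher in 8 of 8 libraries, and the difference in the share at 0 was -8.27 points, lower in 8 of 8 (exact sign-flip test over 4 lines, p = 0.13 for each). Of the 41 long islands of that stratum 32 held a transcript start, and these had a mean of 1.51% against 0.934% in 1308 short ones. The mean of the 32 rested in part on 1 island at 23.9%, the only one of them at 10% or more. Among the 1308 short ones 18 (1.38%) were at that level. A comparison without these islands was not made in this stratum. Medians lay at 0.50% and 0.409%.

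The methylated islands had fewer CpGs for their base composition at the median. The ratio of observed to expected CpGs had a median of 0.782 in the 13 islands at 10% or more and of 0.858 in the other 811, with ranges that overlapped (0.607 to 1.01 and 0.615 to 1.27). Long islands with a ratio under 0.75 (89) had a mean of 3.17% and those of 0.95 or more (150) had 0.752%. The 89 included the chromosome 5 island at 91.0%, and the medians were 0.609% and 0.382%. The means of short islands moved in the same order from 7.32% under 0.75 to 1.06% between 0.85 and 0.95, and rose to 1.71% at 0.95 or more.

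Of the long islands 304 (36.9%) had a value above 0 in all 8 libraries and 14 (1.70%) were at 0 in all 8, against 276 (14.8%) and 96 (5.13%) of the short islands. The 14 had a median of 105 readable CpGs and of 84.5 CpGs per kb, and the 304 had 138 and 103. All but 1 of the 14 held a transcript start. The longest were those of Zfp521, Rfx4, Barhl2, Zhx2 and Tle1, from 2838 down to 2030 bp. Of the 14, 3 were at developmental transcription factor genes of the list used further on and 1 at a signalling gene. Beyond the read minimum in the study's methods read counts were not given, so no close upper limit can be put on their level.

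Of the gene lists compared, the developmental transcription factors held the most long islands. They are also the largest list, with 198 genes against 34 to 109 in the others. An island was counted with a gene when a transcript of it started within 2 kb, and no island of the lists passed an adjusted p of 0.05 in the comparisons between groups given further on. With the 198 developmental transcription factor genes, 76 long islands (9.22% of the long) and 16 short islands (0.856% of the short) were counted. The median of the 76 was 0.787%, against 0.415% in the 694 long islands at no listed gene, and 25 of them (32.9%) had a mean of 1% or more against 16.6%. Short islands of the list were higher as well, with a median of 1.52% against 0.431% in the 1812 at no listed gene. Of the 16, 11 (68.8%) had a mean of 1% or more, against 19.6%. None of the 76 long islands reached 10%. They were also at 0 more often, 33.7% of values against 24.5%, with 125 readable CpGs at the median against 130.5. Zeros and higher levels thus stood side by side in them. Examples chosen after their values were seen are Foxd3 and Foxa2. Foxd3, a stem cell and neural crest factor, had 4.76 and 1.39% in Smchd1 wt at day 2 and 0 in both Smchd1 matΔ lines at that day, but 0 and 2.38% against 3.85 and 6.06% at day 2.5 (limma, adjusted p = 0.867 for the genotype by day interaction). Foxa2, an endoderm factor, was at 0 in 7 libraries and at 5.26% in Smchd1 wt line 1 at day 2.

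The highest of the list was Gata2 (chr6:88196377-88199830), a blood and endothelial factor, with 4.24 and 6.47% in Smchd1 wt at day 2, 5.71 and 4.80% at day 2.5, 5.38 and 5.75% in Smchd1 matΔ at day 2, and 6.56 and 5.74% at day 2.5. The genotypes of Gata2 overlapped at day 2, and both Smchd1 matΔ lines were above both Smchd1 wt lines at day 2.5 (limma, adjusted p = 0.989). Dlx3, of ectoderm, was next at a mean of 3.78%, and rested on 11.6% in Smchd1 wt line 1 and 7.17% in Smchd1 matΔ line 2 at day 2, with 1.04 to 2.42% in the other libraries. The lowest were Barhl2, Zic1 and Bcl11b, at 0 throughout.

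Signalling ligands and receptors had 28 long islands with a median of 0.492%. Fzd2 was the highest at 16.2%, then the Wnt ligand gene Wnt7b at 9.23%. Ptch1, the Hedgehog receptor, had 0.188%, and Notch1 was at 0 in all libraries. A second long island of Wnt7b had 0.608%. Of the genes of NMPs and of pluripotency there were 11 long islands, between 0.199 and 1.16%, with a median of 0.400%. Grhl2 was the highest and Wnt3a, a Wnt ligand that keeps NMPs, followed at 1.03%. Sox2, a factor of neural and stem cells, had 0.267% and Klf4 0.398%, both named after their values were seen. Tcf7l1, a Wnt pathway repressor, had 0.241% and the Wnt target Axin2 0.199%.

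Housekeeping genes had the lowest level, a median of 0.126% over 6 islands, from 0.0596% at Ywhaz to 0.716% at H2afz. The island shared by Noa1 and Polr2b had 0.110% and that of Rdh10, within 2 kb of the start of Rpl7, 0.434%. Of imprinted genes 5 long islands had values. Cdkn1c, a cell cycle inhibitor expressed from the maternal allele, had 7.27% with a range of 4.66 to 10.5%, Igf2 0.847%, Grb10 0.634%, Jade1 0.228% and Gnas 0.170%. An island near an imprinted gene is not necessarily its imprinting control region. The only germline gene with a long island was Cpeb1, at 1.38%. Among genes of the methylation machinery and of Polycomb, Cbx8 had 2.25%, Jarid2 0.613%, Kdm2a 0.572% and the methyltransferase gene Dnmt3a 0.293%.

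Lines of a group differed less in long islands. The mean absolute difference between line 1 and line 2 was 0.765 points in Smchd1 wt at day 2, 0.625 at day 2.5, 0.694 in Smchd1 matΔ at day 2 and 0.778 at day 2.5. In short islands it was 1.10, 0.998, 1.16 and 1.16 points. The difference between the classes was -0.389 points, with long islands lower in 4 of 4 groups (exact sign-flip test over the groups, p = 0.13). The groups are 2 pairs of lines at 2 days each, and with the pairs as units no p under 0.5 can be had. Differences of 5 points or more were found in 1.33 to 1.94% of long and in 4.17 to 5.03% of short islands. The spread rose with the level. Long islands of under 1% differed between lines by 0.376 to 0.463 points, those of 1 to 5% by 1.20 to 1.58, those of 5 to 10% by 2.78 to 4.21 and those of 10% or more by 4.49 to 8.41 points. In short islands of the same levels the ranges were 0.505 to 0.533, 1.68 to 2.13, 3.81 to 4.98 and 6.70 to 9.46 points. Among islands with a mean under 10% the difference between the classes was -0.177 points, but with 20 to 59 readable CpGs it was 0.314 points the other way, with long islands higher in 3 of 4 groups.

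Values of an island in the lines of a group were correlated over all levels and less within the lower ones. Over all 824 long islands Pearson's r between the lines of a group was 0.922 to 0.949, but over the 674 of under 1% it was -0.00244 to 0.147 and over the 122 of 1 to 5% it was -0.00713 to 0.302. These are descriptions across islands of the same libraries, which are not independent replicates, and the classes were cut on the mean of the same values, which by itself lowers r within a class.

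Between the genotypes the mean of the long islands differed by under 0.1 points at each day, and with 2 lines against 2 no difference could have passed the test. The day 2 means of the genotypes were 1.19 ± 0.0244% for Smchd1 wt and 1.24 ± 0.0497% for Smchd1 matΔ (SD, n = 2), a difference of 0.0524 points (exact permutation test, two-sided p = 0.667). The day 2.5 means were 1.15 ± 0.00612% and 1.23 ± 0.0951%, a difference of 0.0740 points (exact permutation test, p = 0.33, the smallest that 2 lines against 2 can give). Both Smchd1 matΔ lines were above both Smchd1 wt lines at day 2.5, but the size of the difference rested on 1 library, and was 0.00676 points without Smchd1 matΔ line 1. Without the same line at day 2 the difference there was 0.0172 points. Medians went the other way, by -0.0339 and -0.0161 points. The genotype difference of long islands minus that of short islands was -0.123 points at day 2 and -0.0235 at day 2.5 (exact permutation test, p = 0.33 and p = 1).

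Day 2.5 minus day 2, the mean of long islands differed by -0.0347 points in Smchd1 wt and by -0.0131 points in Smchd1 matΔ (exact permutation test, p = 0.33, the smallest possible, and p = 1). Both Smchd1 wt lines were lower at day 2.5 and their days did not overlap, while those of Smchd1 matΔ did. The day difference in Smchd1 matΔ changed sign to 0.0542 points without line 2 at day 2.5, and to 0.0221 points without line 1 at day 2.

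Single long islands were tested with limma across all 7196 islands that were not at 0 in every library, of which 810 were long. At an adjusted p of 0.05 limma called 0 of the 810 and 0 of the 7196 (0%) between genotypes at day 2, at day 2.5 or averaged over the days, between days in either genotype, and for the genotype by day interaction. At an unadjusted p under 0.05 there were 28 long islands (3.46%) between genotypes at day 2, against 4.21% of all islands, 16 (1.98%) at day 2.5 against 4.29%, and 27 (3.33%) averaged over days against 5.21%. There were 19 (2.35%) between days in Smchd1 wt against 4.07%, and 28 (3.46%) in Smchd1 matΔ against 4.41%. For the interaction there were 23 of the 810, a smaller share than the 336 of all 7196 islands (4.67%). The calls were sensitive to single libraries. With any 1 of the 4 libraries of a comparison left out, so that the remaining library of that group is taken to vary like the other groups, 1 to 6 long islands passed at day 2 and 3 to 7 at day 2.5, of 73 to 121 islands of all lengths that passed in these fits. The smallest p values are therefore given as descriptions of the islands at the edge of the test.

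The differences themselves were small. At day 2, 716 of the 810 (88.4%) differed between genotypes by under 1 point and 7 by 5 points or more, 6 of them higher in Smchd1 matΔ. At day 2.5 the same number differed by under 1 point and 9 by 5 points or more, 8 of them higher. Over all 7196 islands such differences were also mostly higher in Smchd1 matΔ, 88 against 33 lower at day 2 and 79 against 30 at day 2.5. They were found in 0.864% and 1.11% of long islands, 1.68% and 1.51% of all islands and 3.38% and 2.87% of short islands. The 2 Smchd1 matΔ lines were not alike in level. Over the 7426 islands of the 3 length classes the mean of line 1 was 1.60% at day 2 and 1.55% at day 2.5. Line 2 had 1.46% and 1.38%, and the Smchd1 wt libraries had 1.40 to 1.43%. Both lines of Smchd1 matΔ were above both of Smchd1 wt in 112 long islands (13.8%) at day 2 and in 114 (14.1%) at day 2.5, against 12.7% and 11.8% of all islands. They were below in 120 (14.8%) and 113 (14.0%), against 12.1% and 13.6%.

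**Figure D5:**
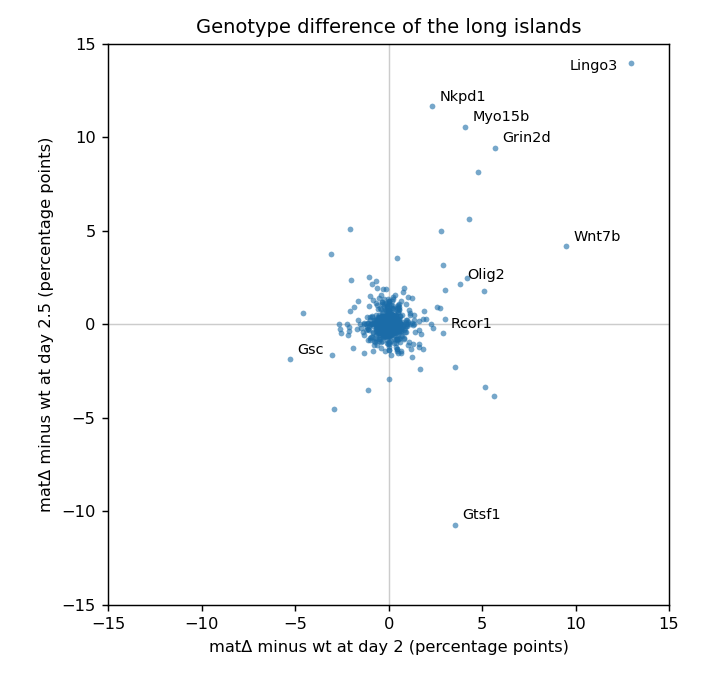
Genotype difference (Smchd1 matΔ minus Smchd1 wt, percentage points, mean of 2 lines each) of the 824 long islands at day 2 on the x axis and at day 2.5 on the y axis. Most points lie within 1 point of 0 on both axes, and of the islands far from 0 Lingo3, at 13 and 14.0 points, is the farthest out and Gtsf1 changes sign.

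The largest differences were in methylated islands. Lingo3 was higher in Smchd1 matΔ by 13 points at day 2 and by 14.0 at day 2.5, with a limma standard error, moderated over islands of like level, of 16.7 points for each and adjusted p of 0.986 and 0.988. Its lines lay far apart at day 2, where leaving out 1 library gave 3.62 to 22.3 points, and close together at day 2.5, where it gave 13 to 15 points. The difference in Gtsf1 was 3.53 points at day 2 and -10.7 at day 2.5. The island in Grin2d, an NMDA receptor subunit gene, at the start of the antisense transcript Gm45441, had 14.7 and 0% in the day 2 libraries of Smchd1 matΔ lines 1 and 2, 20 and 5.33% in those of day 2.5, and between 0 and 5.0% in Smchd1 wt. In Grin2d line 1 of Smchd1 matΔ stood apart from line 2 at both days. Myo15b was at 28.2% in Smchd1 matΔ line 1 at day 2.5 and from 7.41 to 15.2% elsewhere.

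Wnt7b and Nkpd1 had large differences with smaller standard errors. The Wnt7b island (chr15:85576299-85578144) had 7.69 and 10% in Smchd1 wt at day 2 and 16.7 and 20% in Smchd1 matΔ, a difference of 9.49 ± 2.57 points (standard error, limma, adjusted p = 0.836). At day 2.5 it had 5.56 and 0% against 8.33 and 5.56%. The day 2.5 minus day 2 difference of Wnt7b was -6.07 points in Smchd1 wt and -11.4 points in Smchd1 matΔ (limma, adjusted p = 0.986 and 0.506). Nkpd1, for a P-loop NTPase domain protein, had 3.88 and 4.53% in Smchd1 wt and 19 and 12.8% in Smchd1 matΔ at day 2.5, a difference of 11.7 ± 3.25 points (limma, adjusted p = 0.849). At day 2 its groups overlapped, with 4.91 and 7.92% against 12.7 and 4.79%.

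Other islands of small p at single days were low. Rcor1, which encodes a corepressor of the REST complex, had the smallest p at day 2, with 2.86 and 2.99% in Smchd1 matΔ and 0 in both Smchd1 wt lines (difference 2.93 ± 0.413 points, limma, adjusted p = 0.509). At day 2.5 Rcor1 was at 0 in both Smchd1 matΔ lines and at 0 and 0.952% in Smchd1 wt, and it also had the smallest p of the long islands between days in Smchd1 matΔ (adjusted p = 0.323) and for the interaction (adjusted p = 0.867). Noc2l was the reverse at a lower level, 0.954 and 0.926% in Smchd1 wt at day 2 and 0 in the other 6 libraries. Tox2, an HMG box factor gene, had 0 and 0.556% in Smchd1 wt and 1.85 and 1.93% in Smchd1 matΔ at day 2, and 1.27 and 0.855% against 0 in both lines at day 2.5. Genotype differences that took opposite signs at the 2 days in every library, as in Tox2 and Foxd3, were found in 37 long islands (4.57%), against 3.35% of all islands. At day 2.5 Sp9, a limb and neural transcription factor gene, had 1.30 and 1.19% in Smchd1 wt against 0 in both Smchd1 matΔ lines, and the cell cycle factor gene E2f3 had 0.231 and 0.337% against 1.36 and 1.71% (limma, adjusted p = 0.885 and 0.898).

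Averaged over the days, the smallest p were those of Cnot6l, Olig2 and Gsc. The Olig2 island (chr16:91225321-91227642), at a factor of motor neuron and oligodendrocyte progenitors, had 1.28 and 2.80% in Smchd1 wt at day 2, 2.82 and 1.71% at day 2.5, 4.56 and 7.19% in Smchd1 matΔ at day 2, and 5.72 and 3.13% at day 2.5. Each Smchd1 matΔ library was above each Smchd1 wt library, by 3.0 ± 0.489 points on average (standard error, limma, adjusted p = 0.854). Cnot6l, for a subunit of the CCR4-NOT deadenylase, was at 0 in all 4 Smchd1 wt libraries and at 1.67, 3.53, 1.82 and 0% in Smchd1 matΔ (1.75 ± 0.272 points, standard error, limma, adjusted p = 0.854). Gsc, an organizer transcription factor gene, had a Smchd1 matΔ minus Smchd1 wt difference of -3.59 points on average. Its Smchd1 wt libraries ran from 0 to 10% with each line changing by over 5 points between days, and the groups overlapped.

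All 4 libraries of Smchd1 matΔ were above all 4 of Smchd1 wt in 8 of the 810 long islands (0.988%), against 1.11% of all islands, and below in 8 (0.988%), against 0.973%. Those above were Myo15b, Olig2, Tmem200b, Dab2ip, Pax2, Adra2c, Nsd2 and Zic5. Those below were Cdkn1a, Gm36445, 2700081O15Rik, Col27a1, Cnn3, Brwd1, Lrp8 and Ctbp2. They are named because the groups did not overlap, after their values were seen. Besides Myo15b and Olig2 the mean difference was at most 1.02 points, in Dab2ip. Cdkn1a, the p53-responsive cell cycle inhibitor gene, went from 1.46, 0.936, 0.951 and 0.889% in Smchd1 wt to 0.878, 0.532, 0.303 and 0.404% in Smchd1 matΔ. Pax2, a kidney and midbrain factor gene, had 0, 0.417, 0 and 0% against 0.567, 0.477, 0.833 and 2.30%. Neither passed the test (limma, adjusted p = 0.854 for each).

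Between days, both lines were higher at day 2.5 in 99 long islands (12.2%) of Smchd1 wt, against 12.3% of all islands, and lower in 107 (13.2%), against 12.6%. In Smchd1 matΔ they were higher in 91 (11.2%), against 11.3%, and lower in 126 (15.6%), against 13.2%. Differences of 5 points or more numbered 5 (0.617%) in Smchd1 wt and 6 (0.741%) in Smchd1 matΔ, against 1.38% and 1.70% of all islands. The day libraries of a genotype come from the same lines. Limma with the line number as a block, a term shared by both genotypes, called 0 long islands between days as well. Lines of different genotypes share only a number, so this block did not model the pairing of days within each line. A block for each separate line was not tested.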

How the data were processed

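The authors cut genomic DNA from 2 lines per genotype and day for RRBS (NuGEN Ovation kit, EpiTect bisulfite conversion, 75 bp single-end reads), trimmed reads with Trim Galore and cutadapt 1.15, aligned them with Bismark 0.20.0 to GRCm38.p6 and quantified CpG islands in SeqMonk, per the study's methods and the submitters' processing notes. Each value deposited is the percent methylation of 1 island in 1 library, and read counts were not given. Bisulfite reads of an unconverted C count as methylated, so incomplete conversion raises low values.

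Islands were grouped by length alone. Genes and transcript starts came from GENCODE M21, and CCGG sites and readable CpGs from the GRCm38 sequence, after all 13167 autosomal islands listed outside the Hox table were checked to start and end with CG. Library means were compared with exact permutation and sign-flip tests (Python 3.11.15, numpy 2.4.6, pandas 2.3.3). Single islands were compared on percent values with limma 3.58.1 (R 4.3.3; trend, 4 residual degrees of freedom, Benjamini-Hochberg over 7196 islands), after a run on simulated data. No low-value filter was used, and the threshold was an adjusted p of 0.05. The separate tables with pooled means were not used. Figures were drawn with matplotlib 3.10.9.

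Islands were named by a rule: the 10 of highest mean, the 3 of smallest p in each genotype comparison by day or averaged and 1 in each other comparison, the 5 of largest genotype difference each day, the 3 longest, the 5 longest at 0, those at the length limit, and the 2 highest and 2 lowest of each gene list. Exceptions are stated. The members, lists and tests were chosen with earlier results of these data known. Libraries of a genotype at day 2 and day 2.5 come from the same lines. Line 1 minus line 2 correlated between days at r = -0.0628 (Smchd1 wt) and 0.197 (Smchd1 matΔ) over all islands with values. Over the long islands r was -0.314 and 0.183. Across genotypes lines share only a number, and r over the long islands was -0.0674 at day 2 and 0.285 at day 2.5. Alternatives changed the length limits, the level, the readable CpGs, the summary, the scale, the units, the block, the moderation, the filter and the libraries.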

Additional observations from a re-analysis of the deposited data

Results flagged for a closer look

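The Tox2 island had genotype effects of opposite sign at the 2 days. Smchd1 matΔ was 1.61 points above Smchd1 wt at day 2, and the difference was -1.06 points at day 2.5, with both lines on the same side each day. The difference between the effects was -2.68 ± 0.520 points (standard error, limma genotype by day term), and it did not pass correction over all islands (adjusted p = 0.867). Of the 810 long islands 23 had an unadjusted p under 0.05 in this test, a smaller share than over all islands, where 336 of 7196 (4.67%) did.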

How the results depend on the processing

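The level of long minus short islands (-0.984 points) turned to 0.0175 among islands under 10%, to 1.09 with 20 to 59 readable CpGs and to 0.168 for the median. With the 8 libraries as units the exact sign-flip p of the level (-0.984) and of the share at 0 (-20.8) reached 0.00781. The libraries are 2 days of each line and not independent replicates. Leaving out 1 library gave -0.998 to -0.969 for the level, -21.0 to -20.5 for the share at 0 and -0.407 to -0.363 for the difference between lines, which turned to 0.314 with 20 to 59 readable CpGs. The genotype difference of long islands turned to -0.0339 for the median and -0.0130 on the log2 scale at day 2, and to -0.0161 and -0.000240 at day 2.5. Leaving out 1 library gave 0.0172 to 0.0876 and 0.00676 to 0.141. The day difference ran from -0.0520 to -0.0174 in Smchd1 wt and from -0.0803 to 0.0542 in Smchd1 matΔ, where it was 0.0221 without line 1 at day 2. The genotype difference of long minus short islands turned to 0.0359 at day 2 with transcript starts alone, chosen after seeing the data, and ran from -0.194 to -0.0534 over libraries. At day 2.5 it turned to 0.0320 under 10%, 0.202 for the median, 0.0170 on the log2 scale, 0.00691 with transcript starts alone and 0.0405 without Smchd1 matΔ line 1 (lowest -0.0875). The cause of these turns was not tested.

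Limma called 0 long islands on the log2 scale, with a mean of at least 1%, with robust moderation and in fits of the 4 libraries compared. Without 1 library it called 0 to 6 at day 2, 0 to 7 at day 2.5, 0 to 7 for the interaction, 0 to 7 and 0 to 6 between days in Smchd1 wt and Smchd1 matΔ, and 0 averaged over days. Pairing libraries by line number leaves a difference of means unchanged by construction. The class differences of 0.0524, 0.0740, -0.0347, -0.0131, -0.123 and -0.0235 points were therefore no test of the pairing. Limma with the line number as a block, a term shared by both genotypes, called 0 long islands. Unknown read depth limits low values and zeros most.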
